A study of Mus musculus with 10 samples.

Results

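Follicular regulatory T (Tfr) cells are Foxp3-expressing CD4 T cells that share the follicle-homing receptor CXCR5 and the transcription factor BCL6 with follicular helper T (Tfh) cells. Of 9356 quality-filtered spleen cells from 5 BXD2 mice, 192 met the gate for Tfr cells. The gate was set on raw unique molecular identifiers (UMIs), each of which tags 1 captured RNA molecule. Members were thus chosen by the raw UMIs of 9 genes. The gate took cells with at least 200 detected genes and at most 10% mitochondrial UMIs, at least 1 UMI of the T cell receptor complex genes Cd3e, Cd3d or Cd3g, none of the B cell gene Cd79a or the CD8 genes Cd8a and Cd8b1, at least 1 UMI of Foxp3, and at least 1 of Cxcr5 or Bcl6. A further 393 cells passed the same gate with Foxp3 but no UMI of Cxcr5 or Bcl6 and are called non-follicular Foxp3 cells here. The 1309 cells with Cxcr5 or Bcl6 and no Foxp3 UMI are called Tfh cells.

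The cells came from 3 mice lacking the p19 subunit of interleukin 23 (IL-23), named p19-/- 1 and 2 (female) and p19-/- 3 (male), and from 2 female wild-type mice, WT 1 and WT 2. All were on the BXD2 background, a recombinant inbred strain that forms germinal centers (GCs) and autoantibodies without immunization. Each mouse gave 1 droplet single-cell RNA library made with a 5' kit and 1 V(D)J library of B cell receptor (BCR) contigs, and the labels name spleen B and T cells as the source, without an age, a sorting gate or a capture day. The series title concerns IL-23 and class switching to IgG2b in the GC, so the genotypes are compared here within the regulatory cells of the follicle.

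FOXP3 is the transcription factor that defines regulatory T cells and holds their suppressive program. Tfr cells arise mainly from such cells, move into the follicle, and limit the help that Tfh cells give to GC B cells through CD40 ligand, IL-21 and IL-4. IL-23, a dimer of p19 and a p40 subunit shared with IL-12, acts on cells that carry its receptor, best known among them the IL-17-producing T cells.

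The 5 RNA libraries held 1104 to 3226 barcodes and 7712457 to 18093053 UMIs, and 951 to 2791 cells per mouse passed the quality filters. Library p19-/- 1 stood apart, with 891 barcodes removed for mitochondrial UMIs against 140 to 380 in the other 4 libraries. Il23a, which encodes p19, had 0 UMIs in every library, so the deletion could not be checked against the labels. Across libraries 68 barcode sequences occurred more than once, and 4 Tfr cells carried such a barcode. The 192 Tfr cells had a median of 4193 UMIs and 1856.5 genes, and summed to 90664 to 331184 UMIs per mouse. Median depth was 3442 UMIs in non-follicular Foxp3 cells and 4000 in Tfh cells.

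Levels below are UMIs of a class summed per mouse and scaled to CPM by the class total, given in the order p19-/- 1, 2, 3 and WT 1, 2. The genes of the gate itself are described without a test, since they chose the cells. Foxp3 (chromosome X, 7579676 to 7595243 in the mm10 build) stood at 662, 490 and 495 CPM in p19-/- Tfr cells and 512 and 529 CPM in WT Tfr cells. Its mean was 538 ± 71.0 CPM in Tfr cells and 590 ± 59.5 CPM in non-follicular Foxp3 cells (SD, n = 5 mice). Cxcr5 (chromosome 9, 44511787 to 44526444) averaged 221 ± 61.3 CPM in Tfr cells and 265 ± 18.7 CPM in Tfh cells, and Bcl6 (chromosome 16, 23965050 to 23988866) averaged 136 ± 16.7 and 138 ± 11.02 CPM in the same classes. Asking for a UMI of either gene in both classes sets these like levels in part. Many cells lay next to the threshold: 109 of the 192 Tfr cells (56.8%) had exactly 1 UMI of Cxcr5 and Bcl6 together, 83 had more, and the highest had 7. Cxcr5 alone was found in 107 cells, Bcl6 alone in 45 and both in 40, and Foxp3 rested on 1 UMI in 78 cells (40.6%).

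Pdcd1, the gene of the inhibitory receptor PD-1 and the one Tfr marker the gate did not use, was detected in 88.5% of Tfr cells, 75.8% of non-follicular Foxp3 cells and 92.7% of Tfh cells. In cells gated as CD8 T cells, at a median of 6148 UMIs, it was found in 7.35%. The regulatory T cell genes Ctla4, for a receptor that competes for CD80 and CD86, and Ikzf2, for the transcription factor Helios, were detected in 70.8% and 89.1% of Tfr cells. Il2ra, for the high-affinity IL-2 receptor chain CD25, was detected in 7.81% of Tfr cells, 21.6% of non-follicular Foxp3 cells and 1.22% of Tfh cells, against 1.47% in the CD8 T gate. After each cell was thinned to 2000 UMIs these Il2ra shares were 4.49%, 12.01% and 0.739%. Il10, which encodes a suppressive cytokine, was detected in 1.04% of Tfr cells, 4.58% of non-follicular Foxp3 cells and 1.15% of Tfh cells. Il21 was found in 6.25%, 2.54% and 30.3% of the same classes. Cd4 was detected in 65.6% of Tfr cells. Absence of a UMI at this depth does not show absence of the transcript. By the same measure, 0.735% of CD8 T gate cells had a Foxp3 UMI and 14.0% had one of Cxcr5 or Bcl6. After thinning the latter share was 5.50%, against 21.1% of Foxp3 cells. The second step of the gate alone would thus also take some CD8 T gate cells. Whether their Cxcr5 and Bcl6 UMIs were background was not tested.

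The part of the Foxp3 cells that fell in the Tfr gate did not differ between genotypes beyond the spread between mice. The share of Foxp3 cells that were Tfr was 39.0% (95% Clopper-Pearson interval 26.5 to 52.6), 29.2% (18.6 to 41.8) and 37.5% (30.0 to 45.5) in p19-/- mice 1 to 3. In WT mice it was 26.25% (19.6 to 33.8) and 34.0% (26.3 to 42.5). The values overlapped, with means of 35.2 ± 5.25% in p19-/- mice and 30.1 ± 5.51% in WT mice, a difference of 5.09 percentage points (two-sided exact permutation p = 0.4, adjusted over 4 measures p = 1.0). With 3 mice against 2 this test cannot give a p below 0.2. After 1 random thinning to 2000 UMIs per cell the shares were 20.8%, 14.3% and 23.8% in p19-/- mice. In WT mice they were 21.8% and 20.2%, so the sign of the difference was reversed. Cells below 2000 UMIs were left out, 6 to 29 Tfr cells per mouse remained, and the cause of the reversal was not tested. Intervals cover counting error only.

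**Figure D1:**
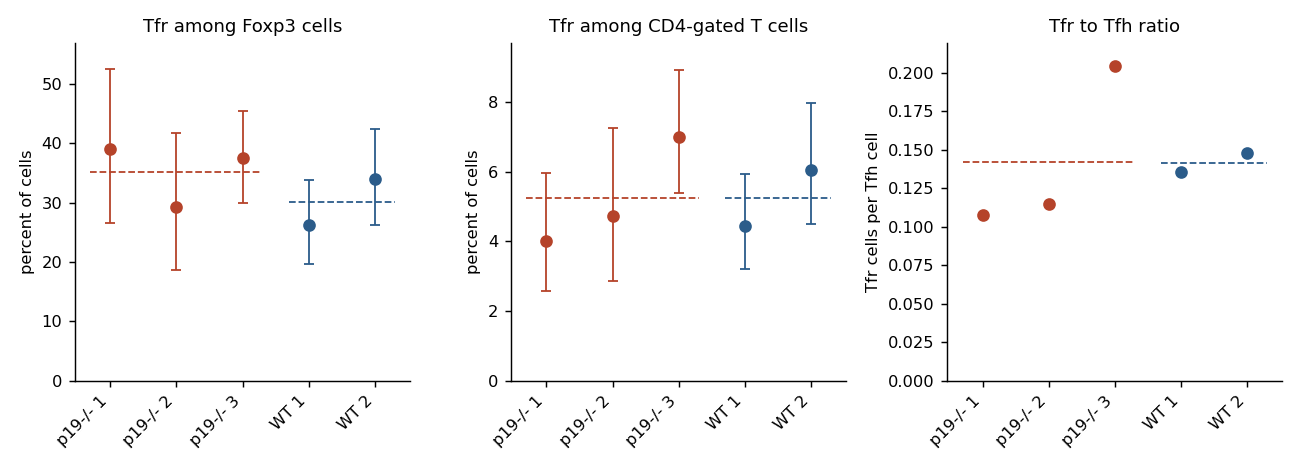
Percentage of Foxp3 cells that are Tfr cells, percentage of CD4-gated T cells that are Tfr cells, and number of Tfr cells per Tfh cell, 1 point per mouse with p19-/- left of WT. Whiskers on percentages are 95% Clopper-Pearson intervals, dashed lines are genotype means, and the 2 genotypes overlap in every panel.

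Set against all CD4-gated T cells, Foxp3 cells were 10.3%, 16.1% and 18.7% in p19-/- mice and 16.9% and 17.8% in WT mice. Tfr cells were 4.01%, 4.71% and 7.001% of CD4-gated cells in p19-/- mice and 4.43% and 6.06% in WT mice. The number of Tfr cells per Tfh cell was 0.107, 0.114 and 0.204 in p19-/- mice and 0.135 and 0.148 in WT mice. The p19-/- values enclosed the WT values in each of these 3 measures, with means of 5.24 ± 1.56% in p19-/- mice and 5.24 ± 1.16% in WT mice for Tfr cells of CD4-gated cells. The exact permutation p was 0.8 for the Foxp3 share and 1.0 for both others, each 1.0 after adjustment.

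Against non-follicular Foxp3 cells of the same mice, Tfr cells had more RNA of Sostdc1, Tcf7 and 5 other genes of the Tfh program, and less of Penk, Il7r and Klf2 among others. Of 3937 genes tested with mouse as a block, 81 (2.06%) had an edgeR quasi-likelihood adjusted p under 0.05, 46 higher (1.17%) and 35 lower (0.889%) in Tfr cells, and 57 of the 81 had the same sign in all 5 mice. The count was 23 without WT 1 and 26 without WT 2. Sostdc1, which encodes a secreted BMP and WNT antagonist made by Tfh and Tfr cells, stood at 1445, 980 and 640 CPM in p19-/- Tfr cells and 459 and 673 CPM in WT Tfr cells. In non-follicular Foxp3 cells it stood at 306, 354 and 579 CPM in p19-/- mice and 155 and 158 CPM in WT mice. It was higher in the Tfr cells of each mouse (log2 fold change 1.42, SE 0.20, edgeR adjusted p = 0.000275). Tcf7, for the transcription factor TCF-1 that acts early in the Tfh program, was at 199, 155, 211, 206 and 157 CPM in Tfr cells, against 193, 76.4, 59.8, 85.7 and 51.3 CPM in non-follicular Foxp3 cells. That was also higher in each mouse (log2 1.22, SE 0.22, edgeR adjusted p = 0.00304), although by little in p19-/- 1. Pdcd1 averaged 1029 ± 167 CPM in Tfr cells and 697 ± 147 CPM in non-follicular Foxp3 cells (log2 0.57, SE 0.11, edgeR adjusted p = 0.0036, or 0.0606 without WT 1). Its levels were higher in the Tfr cells of 5 of 5 mice. Without barcodes that had a BCR contig Sostdc1 differed by 1.40 on the log2 scale (edgeR adjusted p = 0.0622) and Pdcd1 by 0.35 (0.412). Among cells of middle UMI totals the differences were 1.0499 (0.262) and 0.37 (0.225), with fewer cells in both subsets.

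Among genes outside the Tfh list, Dnase1l3, for a secreted DNA-digesting enzyme, gave the largest positive fold among the named genes. It stood at 254, 221, 148, 165 and 133 CPM in Tfr cells, against 106, 72.4, 32.0, 23.9 and 41.0 CPM in non-follicular Foxp3 cells (log2 1.89, SE 0.22, edgeR adjusted p = 7.45e-05), so that the classes did not overlap. Tbc1d4, for a RAB GTPase-activating protein of glucose transporter traffic, was at 342, 335, 332, 430 and 458 CPM in Tfr cells and 224, 193, 130, 141 and 203 CPM in non-follicular Foxp3 cells (log2 1.16, SE 0.15, edgeR adjusted p = 0.000214). These calls held in all 15 alternative settings tried for each gene. Coq8a, for a kinase-like protein of coenzyme Q synthesis, averaged 147 ± 37.4 CPM in Tfr cells and 56.2 ± 10.2 CPM in non-follicular Foxp3 cells (log2 1.39, edgeR adjusted p = 0.000263). Evl, for an actin regulator, was higher by 1.04 on the log2 scale (edgeR adjusted p = 0.00304). Among cells of middle UMI totals the calls of Coq8a and Evl were lost (edgeR adjusted p = 0.148 and 0.0923). Evl was also lost by DESeq2 (adjusted p = 0.0878).

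In the other direction, the calls of 5 named genes held whichever mouse was left out. Penk, the precursor of enkephalin peptides and a gene known from tissue regulatory T cells, was at 243, 0, 220, 53.0 and 149 CPM in Tfr cells, against 412, 740, 841, 661 and 505 CPM in non-follicular Foxp3 cells (log2 -2.28, SE 0.30, edgeR adjusted p = 0.000214). Its highest Tfr value lay below its lowest non-follicular value. Il7r, for the IL-7 receptor chain of resting and memory T cells, was at 99.3, 147, 30.2, 17.7 and 15.7 CPM in Tfr cells and 187, 410, 113, 79.7 and 189 CPM in non-follicular Foxp3 cells (log2 -1.90, SE 0.26, edgeR adjusted p = 0.000214). Here the ranges overlapped across mice but not within any mouse. Crip1, for a small zinc-binding LIM protein, averaged 482 ± 232 CPM in Tfr cells and 977 ± 281 CPM in non-follicular Foxp3 cells (log2 -1.10, edgeR adjusted p = 0.00191). Gbp7, for an interferon-induced guanylate-binding protein, averaged 56.7 ± 18.7 CPM in Tfr cells and 129 ± 38.2 CPM in non-follicular Foxp3 cells (log2 -1.32, edgeR adjusted p = 0.00302). Arl5a, for a small GTPase of the Golgi, was lower by the same measure (log2 -1.40, edgeR adjusted p = 0.00169). In other settings each of the 5 lost its call at least once. By DESeq2 the adjusted p was 0.257 for Penk, 0.0878 for Gbp7 and 0.0543 for Arl5a. With no mouse block edgeR gave 0.0964 for Il7r and 0.0924 for Crip1. Gbp7 was also lost without contig barcodes (0.132), and Arl5a (0.172) and Crip1 (0.054) among cells of middle UMI totals.

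**Figure D2:**
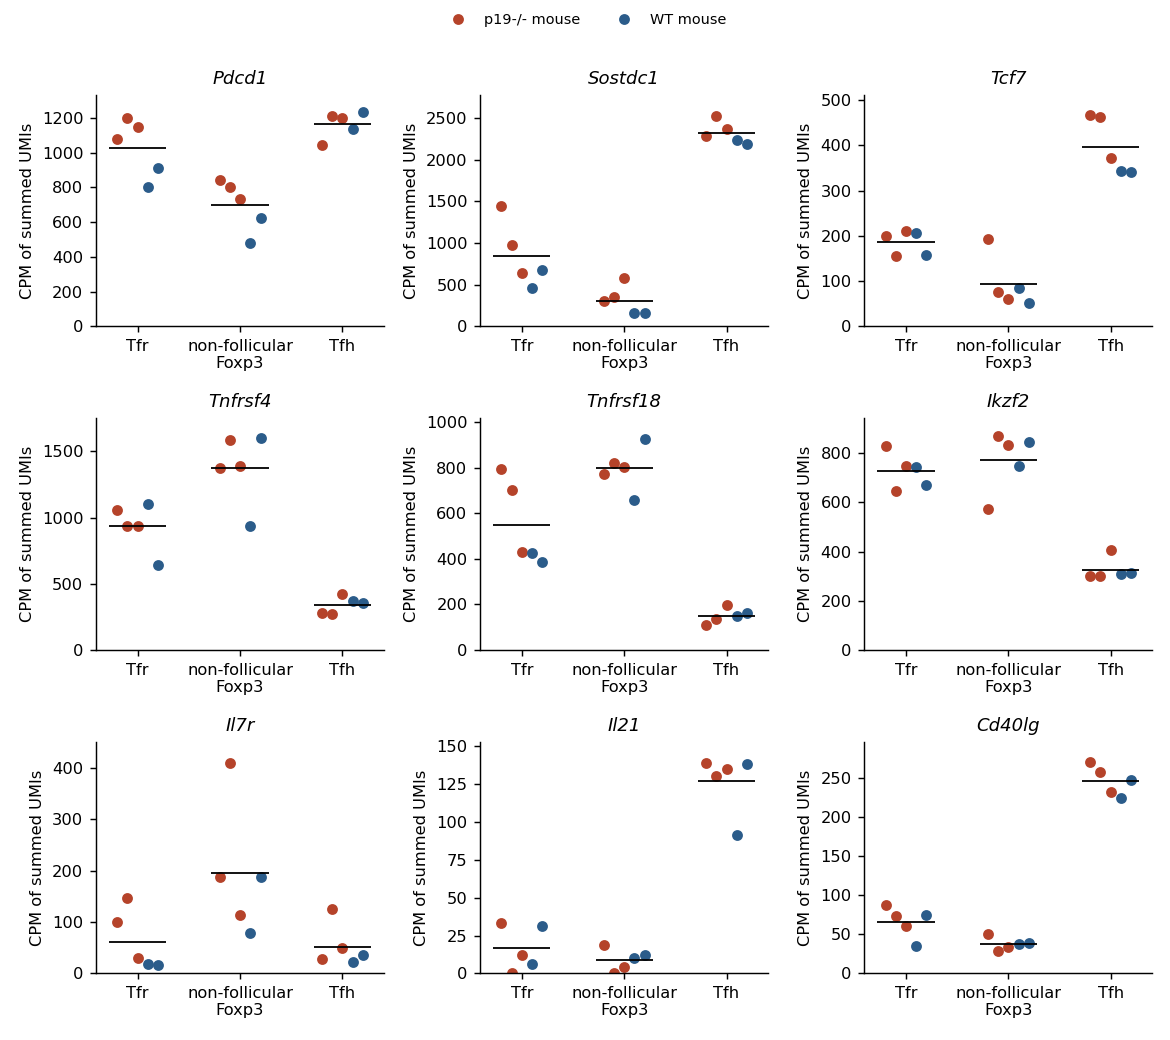
Levels in CPM of 9 genes in Tfr cells, non-follicular Foxp3 cells and Tfh cells (left to right), 1 point per mouse coloured by genotype, with linear axes from 0; short lines are means over the 5 mice. Pdcd1, Sostdc1 and Tcf7 are higher in Tfr than in non-follicular Foxp3 cells, Ikzf2 and the Tnfrsf genes are higher in Tfr than in Tfh cells, and Il21 and Cd40lg are low in both Foxp3 classes.

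Of 31 genes listed for the Tfh program, 24 were tested in this comparison. Their median log2 difference was 0.63 against -0.00 over all genes tested, of which 1.17% were called higher. In Tfr cells 7 of the 24 were higher and none lower. Beside Sostdc1, Tcf7 and Pdcd1 these were Tox2, a nuclear factor of Tfh differentiation (log2 1.07, edgeR adjusted p = 0.00304), Il6ra, the IL-6 receptor chain (log2 1.22, edgeR adjusted p = 0.0225), Tnfsf8, the CD30 ligand (log2 1.13, edgeR adjusted p = 0.016), and Hif1a, the hypoxia-response factor (log2 0.78, edgeR adjusted p = 0.00157). Some of these calls depended on single mice. Tox2 had an edgeR adjusted p of 0.0604 without WT 1, Il6ra had 0.0718 without p19-/- 2 and 0.117 and 0.256 without either WT mouse (1, then 2), and Tnfsf8 had 0.071 and 0.369 without either WT mouse. The list itself had 3 to 12 members called when 1 mouse was left out, 3 of them without WT 1. Since Tfr cells were chosen by Cxcr5 or Bcl6, the gate sets the direction of this list in part.

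Of 36 listed regulatory T cell effector genes, 25 were tested, none was higher and 7 were lower in Tfr cells, with a median log2 difference of -0.44. Over all genes tested 0.889% were called lower. Tnfrsf9, for the costimulatory receptor 4-1BB, averaged 469 ± 119 CPM in Tfr cells and 827 ± 180 CPM in non-follicular Foxp3 cells (log2 -0.86, SE 0.16, edgeR adjusted p = 0.00353, or 0.08 without WT 2). Tnfrsf18, for GITR, was at 794, 703, 429, 424 and 384 CPM in Tfr cells against 773, 821, 803, 658 and 927 CPM in non-follicular Foxp3 cells (log2 -0.64, SE 0.15, edgeR adjusted p = 0.0252, but 0.127 without p19-/- 3, and 0.144 and 0.256 without either WT mouse). The Tnfrsf18 levels of p19-/- 1 went the other way. Tnfrsf4, for OX40, averaged 936 ± 180 CPM in Tfr cells and 1376 ± 270 CPM in non-follicular Foxp3 cells (log2 -0.56, edgeR adjusted p = 0.0464, lost without any 1 of p19-/- 1, 2, 3 and WT 2 at 0.052 to 0.364). Itgae, the integrin chain CD103, was lower by 1.31 on the log2 scale (edgeR adjusted p = 0.0101, but 0.0771 and 0.138 without either WT mouse). The other 3 were Ikzf4, Gzmb and Capg, for the factor Eos, granzyme B and an actin-capping protein. Their calls were lost without WT 1, at edgeR adjusted p of 0.158, 0.176 and 0.195, and without WT 2, at 0.225, 0.173 and 0.233. Without WT 2 none of the 24 members then tested was called, and without WT 1 or without p19-/- 3 there were 2. With no mouse block 1 was called. This list's count thus rested on single mice while its median stayed between -0.59 and -0.29.

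The core regulatory genes Ikzf2, Ctla4 and Tigit did not separate the Foxp3 classes by these tests, which does not show equal levels. Ikzf2 averaged 726 ± 71.7 CPM in Tfr cells and 774 ± 121 CPM in non-follicular Foxp3 cells (log2 -0.11, edgeR adjusted p = 0.795). Ctla4 averaged 449 ± 67.0 CPM in Tfr cells and 474 ± 98.9 CPM in non-follicular Foxp3 cells (log2 -0.08, edgeR adjusted p = 0.862), and the checkpoint receptor Tigit differed by -0.03 on the log2 scale (edgeR adjusted p = 0.953). Prdm1, for the factor BLIMP-1, and Il2ra differed by -0.78 and -0.76 without passing the test (edgeR adjusted p = 0.406 and 0.523). Without a filter on low counts Il2ra was called lower (edgeR adjusted p = 0.0464), in 1 of 14 alternative settings. It was also detected in a smaller share of Tfr cells, as given above.

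Genes of movement through lymphoid tissue were lower where they differed. Of 28 listed homing and positioning genes 16 were tested, and 4 were lower and none higher in Tfr cells, with a median of -0.44. Over all genes tested 0.889% were called lower. Klf2, for the factor that keeps the egress receptor gene S1pr1 on, was at 11.03, 16.3, 87.6, 94.2 and 19.6 CPM in Tfr cells and averaged 159 ± 122 CPM in non-follicular Foxp3 cells (log2 -1.54, SE 0.29, edgeR adjusted p = 0.00353, or 0.117 without WT 1). Cxcr3, for a receptor of inflammatory chemokines, averaged 45.03 ± 38.8 CPM in Tfr cells and 105 ± 52.1 CPM in non-follicular Foxp3 cells (log2 -1.37, edgeR adjusted p = 0.00788, but 0.0845 and 0.0856 without either WT mouse). Itgae and Selplg, for the selectin ligand PSGL-1 (log2 -0.79, edgeR adjusted p = 0.00772, but 0.0646 and 0.139 without either WT mouse), made up the 4. The list had 0 calls without WT 1 and 1 without WT 2. Cell-cycle genes gave 1 call, Birc5, for a mitotic survival protein (log2 -1.43, edgeR adjusted p = 0.0259, but 0.0517 without p19-/- 2, and 0.234 and 0.256 without either WT mouse), with medians of -0.29 over 13 S phase and -0.42 over 9 G2 and M phase genes tested. Over all genes tested 2.06% were called, so 1 call in these lists is near that share.

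Of the 24 genes that the naming rule gave for this comparison, 11 were called whichever mouse was left out and 13 were lost without at least 1 mouse. Beside those given above, Atp1b1, Ces2c, Cxxc5, Tmem38b, Bst2, Gbp3 and Rftn1 were lost without WT 1 at edgeR adjusted p of 0.0646, 0.102, 0.0604, 0.0845, 0.0969, 0.113 and 0.109. Barcodes with a contig in the BCR library made up 40.6% of all Tfr cells and 27.2% of all non-follicular Foxp3 cells, but the order differed between mice (values by mouse are given with the BCR libraries), and without such barcodes 27 genes were called of the 1803 that could then be tested. Their part in single differences was not tested beyond this.

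**Figure D3:**
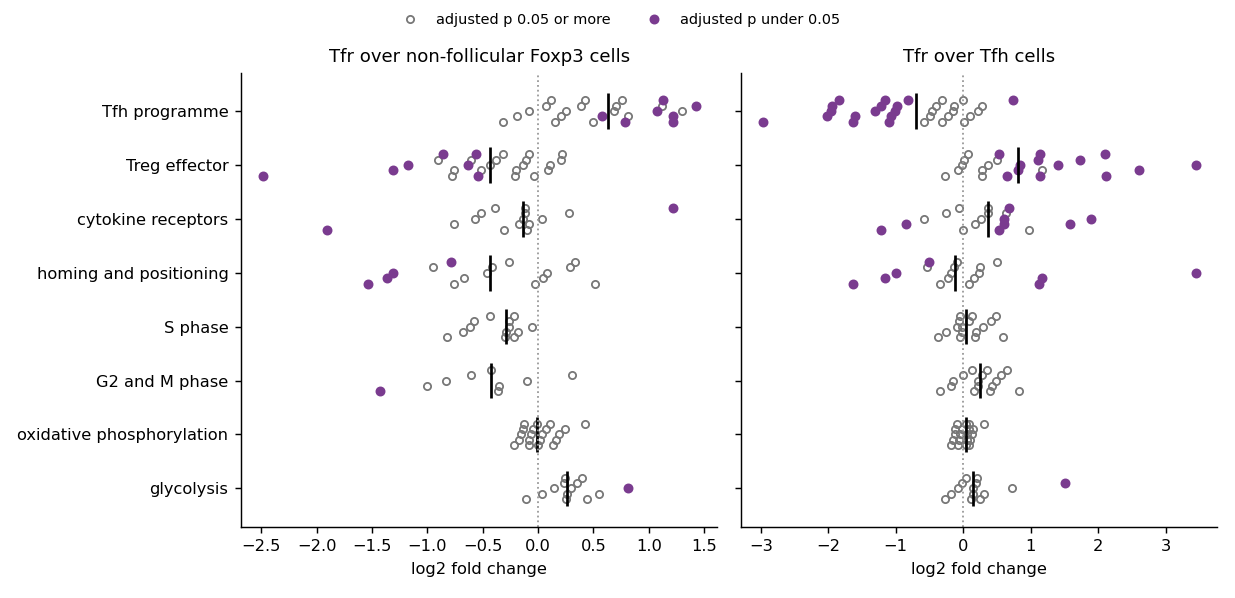
Log2 fold change of each tested member of 8 gene lists, Tfr against non-follicular Foxp3 cells (left) and Tfr against Tfh cells (right); filled points have an edgeR adjusted p under 0.05, black bars are list medians and the dotted line is the median of all genes tested. The Tfh program lies above the line in the left panel and below it in the right one, and the regulatory T cell effector list does the reverse. The classes were chosen by Foxp3, Cxcr5 and Bcl6, so the gate sets these directions in part.

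Against Tfh cells of the same mice, Tfr cells had more RNA of regulatory T cell genes and less of the genes through which Tfh cells help B cells. Of 6815 genes tested, 387 (5.68%) passed, 210 higher (3.08%) and 177 lower (2.6%) in Tfr cells, and 335 of them had the same sign in all 5 mice. Without p19-/- 3 the count was 232. All 24 genes given by the naming rule for this comparison were called whichever mouse was left out. Il21, for the cytokine that drives GC B cells and plasma cell formation, was at 33.1, 0, 12.1, 5.89 and 31.3 CPM in Tfr cells, against 139, 130, 135, 91.5 and 138 CPM in Tfh cells (log2 -2.97, SE 0.29, edgeR adjusted p = 6.88e-08). Cd40lg, for CD40 ligand, was at 88.2, 73.5, 60.4, 35.3 and 74.4 CPM in Tfr cells, against 271, 258, 233, 225 and 248 CPM in Tfh cells (log2 -1.95, SE 0.17, edgeR adjusted p = 9.56e-09). Neither gene overlapped between the classes. Il4, for the switch-factor cytokine IL-4, averaged 48.8 ± 27.3 CPM in Tfr cells and 124 ± 23.7 CPM in Tfh cells (log2 -1.11, edgeR adjusted p = 0.00292). The Il4 call was lost among cells of middle UMI totals and with at least 2 UMIs of Cxcr5 and Bcl6 in Tfr cells. There the edgeR adjusted p was up to 0.678 and the log2 difference as small as -0.39.

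Tfh program genes were intermediate in Tfr cells where both comparisons called them, an order that the gate sets in part. Tfr cells were chosen by Cxcr5 or Bcl6 and Tfh cells by lack of Foxp3, so genes expressed along with these can shift this way. Whether the Tfr cells are a mixture was not tested. Over all genes tested, 2.6% were called lower and 3.08% higher. Of 31 listed genes of this program, 30 were tested, with a median log2 difference of -0.70 against -0.00 over all genes. Among them 15 were lower and 1 was higher in Tfr than in Tfh cells. The one higher was Egr2, an early growth response factor (log2 0.74, edgeR adjusted p = 0.0235, but 0.137 leaving out p19-/- 2, and 0.0722 and 0.146 without either WT mouse). Sostdc1 averaged 840 ± 387 CPM in Tfr cells, 310 ± 174 CPM in non-follicular Foxp3 cells and 2323 ± 134 CPM in Tfh cells (Tfr against Tfh log2 -1.61, SE 0.14, edgeR adjusted p = 9.56e-09). Tcf7 averaged 186 ± 27.5, 93.3 ± 57.5 and 397 ± 62.7 CPM in the same order (Tfr against Tfh log2 -1.07, edgeR adjusted p = 5.5e-06). Lower in Tfr than in Tfh cells were also Ascl2, a factor that starts the Tfh program (62.7 ± 40.2 against 267 ± 25.8 CPM, log2 -1.96, edgeR adjusted p = 6.31e-07), Cd200, for an inhibitory ligand (64.2 ± 20.3 against 222 ± 25.9 CPM, log2 -1.84, edgeR adjusted p = 5.76e-08), and S1pr2, a receptor that holds cells in the GC (32.1 ± 27.4 against 111 ± 15.2 CPM, log2 -1.63, edgeR adjusted p = 0.000189). The S1pr2 call was lost without contig barcodes and with at least 2 UMIs of Cxcr5 and Bcl6 in Tfr cells (edgeR adjusted p up to 0.214). Tnfsf8 was lower by 2.02 (edgeR adjusted p = 1.63e-07). The count of lower list members was 13 without contig barcodes and 10 among cells of middle UMI totals. It was 9 with at least 2 UMIs of Cxcr5 and Bcl6 in Tfr cells. Pdcd1 did not pass (1029 ± 167 CPM in Tfr and 1163 ± 76.1 CPM in Tfh cells, log2 -0.23, edgeR adjusted p = 0.301), nor did Icos, for an inducible costimulator (log2 0.01, edgeR adjusted p = 0.992), or Maf, a factor for IL-21 and IL-10 (log2 0.11, edgeR adjusted p = 0.773).

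Tfh cells were chosen by lack of Foxp3, which sets the direction of regulatory genes in part. Against Tfh cells 3.08% of all genes tested were called higher. Of the 36 regulatory T cell effector genes 23 were tested against Tfh cells, and 13 were higher and none lower in Tfr cells, with a median of 0.81. When 1 mouse was left out this count was 13 or 14, and it was 5 when Tfr cells needed at least 2 UMIs of Cxcr5 and Bcl6. Ikzf2 was at 827, 645, 746, 742 and 670 CPM in Tfr cells, against 299.6, 301, 405, 309 and 314 CPM in Tfh cells (log2 1.11, SE 0.11, edgeR adjusted p = 5.69e-08). Tnfrsf4 averaged 936 ± 180 CPM in Tfr cells and 340 ± 64.3 CPM in Tfh cells (log2 1.40, edgeR adjusted p = 2.14e-08), Tnfrsf18 547 ± 188 and 151 ± 32.6 CPM (log2 1.72, edgeR adjusted p = 1.08e-07), and Tnfrsf9 469 ± 119 and 99.1 ± 24.3 CPM (log2 2.12, edgeR adjusted p = 1.71e-09). None of these 4 genes overlapped between the classes. Tigit and Ctla4 were higher by 1.14 and 0.81 on the log2 scale (edgeR adjusted p = 5.36e-08 and 2.27e-05). The Ctla4 call was lost with at least 2 UMIs of Cxcr5 and Bcl6 in Tfr cells (edgeR adjusted p = 0.0514). Itgae averaged 63.9 ± 47.5 CPM in Tfr cells and 4.61 ± 1.31 CPM in Tfh cells (log2 3.45, edgeR adjusted p = 1.01e-06).

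Decoy and antagonist genes of the IL-1 pathway, which are known from Tfr cells, were among those higher. Il1r2, for the decoy receptor of IL-1, was at 629, 343, 402, 507 and 638 CPM in Tfr cells and averaged 132 ± 57.0 CPM in Tfh cells (log2 1.89, SE 0.15, edgeR adjusted p = 4e-09). Il1rn, for the IL-1 receptor antagonist, was at 99.3, 24.51, 93.6, 64.8 and 125 CPM in Tfr cells and averaged 10.6 ± 3.08 CPM in Tfh cells (log2 2.93, SE 0.26, edgeR adjusted p = 1.82e-08). Nrn1, which encodes neuritin, a secreted protein known from Tfr cells, averaged 458 ± 79.5 CPM in Tfr cells and 125 ± 31.8 CPM in Tfh cells (log2 1.82, edgeR adjusted p = 8.21e-10). Of 23 genes listed as described in Tfr cells, 19 were tested here, 9 were higher and 4 lower, with a median of 0.11. Over all genes tested 3.08% were called higher and 2.6% lower. Against non-follicular Foxp3 cells 20 of the 23 were tested, 4 were higher and 3 lower, with a median of 0.27, and Il1rn was among those higher (log2 1.27, edgeR adjusted p = 0.0349, but 0.0556 without p19-/- 1, 0.169 leaving out p19-/- 3, and 0.159 and 0.349 without either WT mouse). Without WT 1 that list had 1 higher and 1 lower call. In the comparison with non-follicular Foxp3 cells 1.17% of all genes were called higher and 0.889% lower.

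Other genes with large differences from Tfh cells included Tnfrsf1b, for TNF receptor 2 (207 ± 74.4 CPM in Tfr and 31.4 ± 12.1 CPM in Tfh cells, log2 2.59, edgeR adjusted p = 6.21e-10), and Cd81, for a tetraspanin (436 ± 112 and 99.1 ± 18.2 CPM, log2 2.06, edgeR adjusted p = 6.4e-11). Ccr8, for a chemokine receptor of tissue regulatory T cells, averaged 216 ± 141 CPM in Tfr cells and 29.9 ± 14.9 CPM in Tfh cells (log2 2.60, edgeR adjusted p = 3.57e-06). Its call was lost with at least 2 UMIs of Cxcr5 and Bcl6 in Tfr cells (edgeR adjusted p = 0.115). Neb, which encodes the muscle filament protein nebulin, averaged 43.4 ± 24.4 CPM in Tfr cells and 1.72 ± 1.07 CPM in Tfh cells (log2 4.28, edgeR adjusted p = 1.13e-06). Lower in Tfr cells were Padi4, for a protein-citrullinating enzyme (18.4 ± 5.86 CPM in Tfr and 253 ± 50.9 CPM in Tfh cells, log2 -3.58, edgeR adjusted p = 6.07e-11), and Ms4a4b, for a membrane protein of T cells (114 ± 76.0 and 623 ± 66.0 CPM, log2 -2.60, edgeR adjusted p = 6.21e-10). Plagl1, a zinc-finger factor gene, averaged 1.78 ± 2.64 CPM in Tfr cells and 53.8 ± 11.1 CPM in Tfh cells (log2 -4.56, edgeR adjusted p = 1.26e-06). Pde2a and Pde3b, for cyclic nucleotide phosphodiesterases, were different by -4.24 and -4.10 on the log2 scale (edgeR adjusted p = 1.61e-05 and 2.63e-05).

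Cytokine and cytokine receptor lists are set here against the 3.08% of all genes called higher and 2.6% called lower than in Tfh cells. Of 31 listed cytokine receptor genes 18 were tested against Tfh cells, 6 were higher and 2 lower in Tfr cells, with a median of 0.37. The lower ones were Il6ra and Tgfbr2, for a TGF-beta receptor (log2 -0.85, edgeR adjusted p = 0.00227). With at least 2 UMIs of Cxcr5 and Bcl6 in Tfr cells both calls were lost (Il6ra edgeR adjusted p = 0.179). The Tgfbr2 call was also lost without contig barcodes and among cells of middle UMI totals (edgeR adjusted p up to 0.281 over its lost settings). Il21r, for the receptor of IL-21, averaged 223 ± 41.4 CPM in Tfr cells and 135 ± 8.68 CPM in Tfh cells (log2 0.67, SE 0.13, edgeR adjusted p = 0.00168). Ifngr1, for the interferon gamma receptor, averaged 108 ± 61.2 CPM in Tfr cells and 31.7 ± 7.04 CPM in Tfh cells (log2 1.58, edgeR adjusted p = 3.24e-05). The Il21r and Ifngr1 calls were lost among cells of middle UMI totals and with at least 2 UMIs of Cxcr5 and Bcl6 in Tfr cells. The edgeR adjusted p was up to 0.421 for Il21r and 0.185 for Ifngr1. Of 27 cytokine genes 12 were tested, none was higher and 5 were lower in Tfr cells. These were Il21, Il4, Tnfsf8, Ifng, for interferon gamma (log2 -2.62, edgeR adjusted p = 0.00878, but 0.0573 leaving out p19-/- 3 and 0.0669 leaving out WT 2), and Il16, for a chemoattractant of CD4 cells (log2 -0.47, edgeR adjusted p = 0.0155, but 0.0806 leaving out p19-/- 3 and 0.1 leaving out WT 1). Il23r, for the IL-23 receptor, was near the detection limit, with 2, 0 and 1 UMIs in p19-/- Tfr cells and 1 and 1 in WT Tfr cells, and Il17a had no UMI in Tfr cells of any mouse. IL-23 receptor RNA could therefore not be compared between genotypes in Tfr cells at this depth.

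Few genes separated p19-/- from WT Tfr cells. Of 3167 genes tested 10 (0.316%) passed, 6 higher (0.189%) and 4 lower (0.126%) in p19-/- mice. The count was 6 without p19-/- 1 or 2, 26 without p19-/- 3 and 27 without WT 1. Vim (chromosome 2, 13574311 to 13582826), which encodes the intermediate filament vimentin, was at 518, 547 and 528 CPM in p19-/- Tfr cells and 147 and 114 CPM in WT Tfr cells (log2 2.08, SE 0.28, edgeR adjusted p = 0.000387). It was found in 12 of 23, 15 of 19 and 28 of 60 p19-/- Tfr cells, against 11 of 42 and 12 of 48 WT Tfr cells. The call held whichever mouse was left out, with edgeR adjusted p up to 0.0258. It was lost among cells of middle UMI totals, where the fold was 0.93 (edgeR adjusted p = 0.471), and without barcodes that had a BCR contig (1.39, edgeR adjusted p = 0.133). With at least 2 UMIs of Cxcr5 and Bcl6 per Tfr cell the fold was 2.62 and the call was lost as well (edgeR adjusted p = 0.417).

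The Vim difference ran the other way in non-follicular Foxp3 cells. There Vim was at 455, 603 and 568 CPM in p19-/- mice and 998 and 747 CPM in WT mice. In Tfh cells it was at 198, 200 and 310 CPM in p19-/- mice and 248 and 218 CPM in WT mice. The genotype difference in Tfr cells minus that in non-follicular Foxp3 cells was 2.71 on the log2 scale (SE 0.27, edgeR adjusted p = 1.15e-05), 1 of 5 genes among 5139 (0.0973%) with such an interaction. S100a6, for a calcium-binding protein, was at 1235, 2173 and 1153 CPM in p19-/- Tfr cells and 1143 and 650 CPM in WT Tfr cells. In non-follicular Foxp3 cells it was at 1347, 1360 and 1368 CPM in p19-/- mice and 2441 and 2152 CPM in WT mice (interaction 1.52, SE 0.27, edgeR adjusted p = 0.0232, or 0.882 without WT 2). Crip1 was at 419, 784 and 646 CPM in p19-/- Tfr cells and 359 and 204 CPM in WT Tfr cells, and at 717, 1106 and 916 CPM in p19-/- and 1397 and 749 CPM in WT non-follicular Foxp3 cells (interaction 1.37, SE 0.25, edgeR adjusted p = 0.0232). Its call was lost without p19-/- 3, WT 1 or WT 2, at 0.145, 0.403 and 0.407. Of these 3 genes, Vim alone kept an edgeR adjusted p under 0.05 whichever mouse was left out. Among cells of middle UMI totals, however, the Vim interaction was 1.31 (edgeR adjusted p = 0.995). The number of interactions was 9 without p19-/- 1, 11 without p19-/- 2 and 2 without WT 2.

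**Figure D4:**
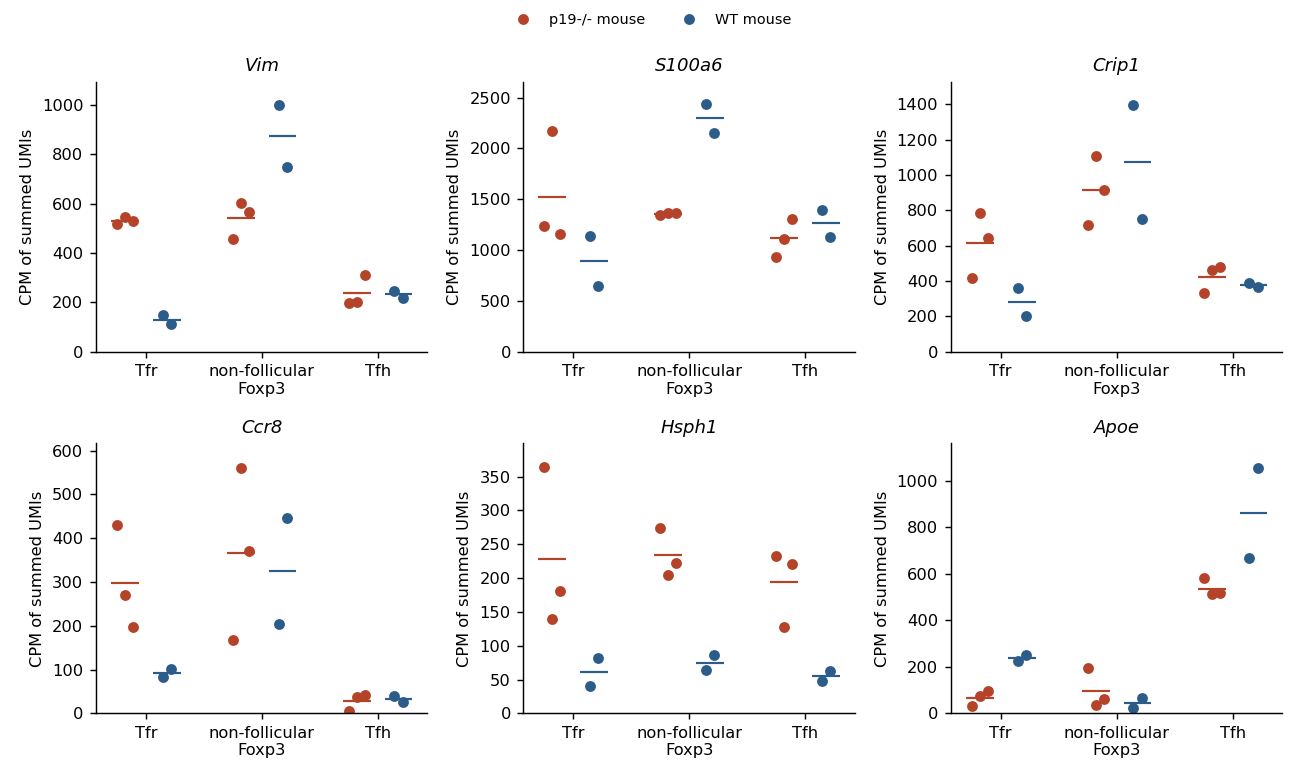
Levels in CPM of Vim, S100a6, Crip1, Ccr8, Hsph1 and Apoe by mouse in Tfr cells, non-follicular Foxp3 cells and Tfh cells, p19-/- mice left of WT mice in each class, with short lines for genotype means. Vim is higher in p19-/- than in WT Tfr cells and lower in p19-/- than in WT non-follicular Foxp3 cells, while Hsph1 is higher in p19-/- mice in all 3 classes.

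Hsph1, for a heat shock protein of the HSP110 family, was at 364, 139 and 181 CPM in p19-/- Tfr cells and 41.2 and 82.2 CPM in WT Tfr cells (log2 1.75, SE 0.38, edgeR adjusted p = 0.041, or 0.397 without p19-/- 1 and 0.134 without WT 1). Non-follicular Foxp3 cells had 274, 205 and 222 CPM in p19-/- mice and 63.8 and 86.2 CPM in WT mice, and Tfh cells had 233, 128 and 221 CPM in p19-/- mice and 48.0 and 62.4 CPM in WT mice. CD8 T gate cells had 215, 123 and 230 CPM in p19-/- mice and 18.03 and 46.5 CPM in WT mice. The genotypes overlapped in none of these classes. Among 17 immediate early and heat shock genes tested in Tfr cells, 15 had a positive fold and Hsph1 was the one called, with a median of 0.82 against 0.00 over all genes. Between genotypes 0.316% of all genes were called. Hspa8, for a constitutive HSP70 chaperone, was at 2989, 1879 and 2367 CPM in p19-/- Tfr cells and 878 and 1652 CPM in WT Tfr cells without passing (log2 0.95, edgeR adjusted p = 0.167).

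Ccr8 was at 430, 270 and 196 CPM in p19-/- Tfr cells and 82.5 and 102 CPM in WT Tfr cells (log2 1.61, SE 0.33, edgeR adjusted p = 0.0242). It was detected in 14 of 23, 10 of 19 and 21 of 60 p19-/- Tfr cells and in 7 of 42 and 10 of 48 WT Tfr cells. The genotypes did not overlap, but the call was lost without p19-/- 1, p19-/- 2, WT 1 or WT 2, at edgeR adjusted p of 0.227, 0.088, 0.0782 and 0.108. Of 22 regulatory T cell effector genes tested, 21 had a positive fold, Ccr8 was the one called, and the median was 0.29 against 0.00 over all genes, of which 0.316% were called. No member of the Tfh program list was called among 26 tested (median -0.33).

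Stab2, for a scavenger receptor best known from sinusoidal endothelium, had 0 UMIs in Tfr cells of each p19-/- mouse and 19 and 20 UMIs in those of WT mice, at least 17.3-fold lower in p19-/- against a floor of 3 counts over the p19-/- Tfr cells (edgeR adjusted p = 0.00933, but 0.207 and 0.532 without either WT mouse). The UMIs were spread over 16 of 42 and 14 of 48 WT Tfr cells. The same pattern stood in Tfh cells, with 0, 1 and 0 UMIs in p19-/- mice and 102 and 154 in WT mice. Non-follicular Foxp3 cells had 0, 0 and 0 Stab2 UMIs in p19-/- mice and 30 and 34 in WT mice. Whole libraries held 34, 30 and 15 Stab2 UMIs in p19-/- mice and 815 and 782 in WT mice, so the difference was not particular to Tfr cells. Stab2 (86841194 to 87008038) and Il23a (128296140 to 128298084) both lie on chromosome 10. Whether this position has a part in the difference was not tested. Spp1, for osteopontin, was at 419, 427 and 812 UMIs in p19-/- Tfh cells and 0 and 2 in WT Tfh cells. In Tfr cells it had 3, 0 and 0 UMIs in p19-/- mice and none in WT mice.

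The remaining 6 calls between genotypes rested on few cells or on receptor segments. Apoe, for a lipid-carrying protein known from Tfh cells and macrophages, was at 33.1, 73.5 and 96.6 CPM in p19-/- Tfr cells and 224 and 251 CPM in WT Tfr cells (log2 -1.58, SE 0.32, edgeR adjusted p = 0.0226). It was found in 1, 3 and 5 p19-/- Tfr cells and in 4 and 8 WT Tfr cells, and its call was lost without p19-/- 1 (edgeR adjusted p = 0.15), p19-/- 2 (0.0969) or WT 2 (0.115). Hist1h1b, a replication-dependent histone gene, was lower in p19-/- mice (log2 -2.47, edgeR adjusted p = 0.0349, but 0.225 and 0.0708 leaving out p19-/- 1 or 2, and 0.999 leaving out WT 2), with most of its WT UMIs in 1 cell per mouse. The cytotoxic T cell genes Ccl5 and Nkg7 were called higher, but Ccl5 had 0, 217 and 216 UMIs in p19-/- Tfr cells and 1 and 4 in WT Tfr cells, and Nkg7 had 0, 51 and 69 against 0 and 5. The p19-/- and WT values of both overlapped, and the whole list of 13 CD8 T and NK genes summed to 904, 2990 and 1371 CPM in p19-/- Tfr cells and 218 and 415 CPM in WT Tfr cells, against 2528 to 12666 CPM in the CD8 T gate. Klrd1, Klrk1, Ncr1, Klre1 and Gzma were at 0 in Tfr cells. Trbv15 (lower) and Trbv26 (higher) are T cell receptor beta segments.

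Tfr cells also varied among themselves in which gate gene they carried. Bcl6 was found in 85 Tfr cells and was not found in 107, which had Cxcr5 only. In the 3 mice with at least 10 cells on each side (p19-/- 3, WT 1 and WT 2), 1 of 2252 genes (0.0444%) passed, and 4 did without p19-/- 3, 68 without WT 1 and 0 without WT 2. Apoe was at 176, 463 and 431 CPM in Bcl6-positive Tfr cells and 18.003, 119 and 17.9 CPM in Bcl6-negative Tfr cells of p19-/- 3, WT 1 and WT 2 (log2 2.88, SE 0.40, edgeR adjusted p = 0.011, or 0.235 without WT 2). The sides did not overlap, and at most 8 Tfr cells in any mouse held an Apoe UMI.

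RNA of the immunoglobulin gene Ighm was detected in nearly all Tfr cells. It encodes the IgM heavy chain constant region and was at 1026, 997, 924, 1102 and 975 CPM in Tfr cells and had a UMI in 188 of 192 cells (97.9%). By class it averaged 1005 ± 65.7 CPM in Tfr cells, 1017 ± 382 CPM in non-follicular Foxp3 cells and 756 ± 53.7 CPM in Tfh cells, and lay between 134 and 279 CPM in the CD8 T gate. After thinning, the share of cells with an Ighm UMI was 83.1% in Tfr cells, 77.5% in non-follicular Foxp3 cells, 72.5% in Tfh cells, 33.03% in the CD8 T gate and 30.9% in the B cell gate. The source of these reads was not tested. Ighm was higher in Tfr than in Tfh cells (log2 0.38, edgeR adjusted p = 0.0168, but 0.0907 leaving out p19-/- 3, and 0.158 and 0.0963 without either WT mouse), and it did not pass against non-follicular Foxp3 cells (log2 0.04, edgeR adjusted p = 0.953).

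The BCR libraries held contigs for 78 of 192 Tfr barcodes (40.6%), at 39.1%, 47.4% and 50% in p19-/- mice and 45.2% and 22.9% in WT mice. Non-follicular Foxp3 cells had contigs for 52.8%, 47.8% and 28% of barcodes in p19-/- mice and 22.9% and 11.8% in WT mice. Tfh cells had them for 54.2%, 39.2% and 21.4% in p19-/- mice and 16.1% and 8.62% in WT mice. The Tfr share was thus above the non-follicular one in 3 of 5 mice, below it in p19-/- 1 and nearly level with it in p19-/- 2. Over all mice, contigs were found for 27.2% of non-follicular Foxp3 cells, 24.6% of Tfh cells and 96.9% of B gate cells, and for 0 of 136 CD8 T gate cells, which allows a share of up to 2.21%. Of the 228 contigs on Tfr barcodes 210 (92.1%) had no V segment and 18 (7.89%) were productive, whereas in the B gate 45.8% had no V segment and 46.6% were productive. Productive contigs lay on 13 Tfr barcodes (6.77%). The full list of 20 B cell markers, which holds Ighm, Igkc and the antigen-presentation genes Cd74 and H2, summed to 2238 to 3421 CPM in Tfr cells, 2232 to 4103 CPM in non-follicular Foxp3 cells, 1463 to 2753 CPM in Tfh cells, 242 to 485 CPM in the CD8 T gate and 27562 to 33248 CPM in the B gate. The 14 genes left without Ighm, Igkc, Cd74 and the H2 genes summed to 88.2 to 153 CPM in Tfr cells, 64.0 to 212 CPM in non-follicular Foxp3 cells, 164 to 233 CPM in Tfh cells, 31.9 to 72.1 CPM in the CD8 T gate and 4446 to 4979 CPM in the B gate, with Fcer2a, Cr2 and Bank1 at 0 in Tfr cells. Doublet scores marked 3 of the 192 Tfr cells. Among myeloid genes Adgre1, S100a8 and Itgam were at 0 in Tfr cells, and the list of 18 summed to 540 to 1070 CPM in Tfr cells and 554 to 5301 CPM in Tfh cells.

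**Figure D5:**
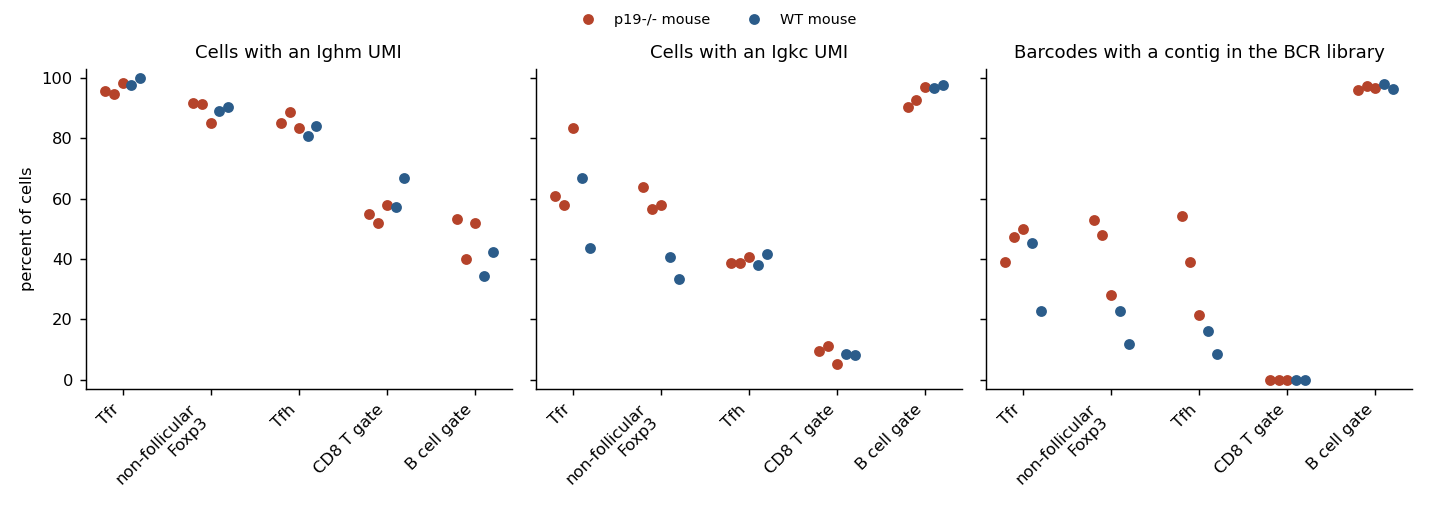
Percentage of cells with an Ighm UMI, with an Igkc UMI (kappa light chain constant gene) and with a contig in the BCR library, by cell class, 1 point per mouse with p19-/- left of WT. In all 3 panels the Tfr, non-follicular Foxp3 and Tfh cells of each mouse lie above its CD8 T gate cells.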

How the data were processed

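Spleen cells of 3 p19-/- and 2 WT mice were analysed from 5 RNA and 5 BCR libraries. The authors deposited raw UMI counts per gene and barcode, not normalized, and a table of BCR contigs, both made with Cell Ranger 3.0.2 and STAR on mm10 per the submitters' processing notes. Barcodes were already filtered in the deposited matrices. Cells were gated on raw UMIs as described above, and no clustering was used. No batch label was given.

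Counts were summed per mouse and class, leaving out sums of under 10 cells. The quasi-likelihood F test of edgeR 4.0.16, run in R 4.3.3 after filterByExpr and TMM scaling, compared the sums, and p-values were adjusted by Benjamini-Hochberg over every gene tested, the 9 genes of the gate apart, at a threshold of 0.05. Mouse was a block where classes of the same mice were compared. Fold changes are Tfr over the other class, p19-/- over WT, or Bcl6-positive over Bcl6-negative cells. Each SE was back-calculated as the absolute log2 fold change divided by the square root of the F statistic. Scripts were tested on simulated counts. Shares were compared with a two-sided exact permutation test over mice (scipy 1.17.1), and Clopper-Pearson 95% intervals and the floor of 3 counts cover counting error only. Depths per mouse and class are given above.

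Named genes had an adjusted p under 0.05, a mean of at least 20 CPM and the same sign in every mouse (no overlap, between genotypes), up to 12 per direction, beside members of 24 gene lists (432 genes) and Il23a, Il23r, Spp1 and Stab2. Gal, Trbv15, Trbv26, Ccl5, Nkg7 and the cells that carry a gene were looked at after values were seen. The members and lists were chosen with earlier results of these data known. Coordinates are from a RefSeq table of GRCm38, the assembly of mm10.

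Alternatives were DESeq2 1.42.0, upper quartile scaling, no filter on low counts, leaving out each mouse, removing Scrublet doublets (scanpy 1.11.5, the 156 top scores, since the automatic threshold marked 23 cells, 0.246%), removing barcodes with a BCR contig, keeping cells between the 25th and 75th percentile of UMIs, requiring Cd4 and other gates. Comparisons between classes were also run with no mouse block. The genotype comparison was also run with sex as a covariate or the replicate number as a block. Removing productive contigs was added after seeing the data.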

Additional observations from a re-analysis of the deposited data

Results flagged for a closer look

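The genotype difference in Tfr cells differed from that in non-follicular Foxp3 cells by an interaction test for 5 genes. It was 2.71 for Vim, 1.52 for S100a6 and 1.37 for Crip1 on the log2 scale, each more positive in Tfr cells. It was 5.73 for Gal, the galanin gene, which falls outside the naming rule: 82 of its 93 UMIs in Tfr cells of p19-/- 3 lay in 1 cell, and without p19-/- 3 the value was -3.29. It was -2.25 for Nr4a1, an immediate early gene, at 22.1, 40.8 and 39.3 CPM in p19-/- Tfr cells and 47.1 and 270 CPM in WT Tfr cells (edgeR adjusted p = 0.0498, or 0.675 without p19-/- 3 and 1.0 without WT 2).

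A contig in the BCR library was found on 40.6% of Tfr barcodes, a signal in libraries that the comparisons of genes did not use, and on 0 of 136 barcodes in the CD8 T gate.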

How the results depend on the processing

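The number of genes called between Tfr and non-follicular Foxp3 cells (81) was 24 by DESeq2 and 186 without a filter on low counts. It was 27 without barcodes carrying a BCR contig, 27 for cells of middle UMI totals and 31 with Cd4 required. It was 24 with no mouse block and 23 to 116 leaving out each mouse. Between Tfr and Tfh cells (387) it was 202 by DESeq2, 156 without contig barcodes, 162 for middle UMI totals, 239 with Cd4 required, 75 with at least 2 UMIs of Cxcr5 and Bcl6 in Tfr cells and 232 to 352 leaving out each mouse. Between genotypes (10) it was 2 by DESeq2, 50 without the filter, 0 without contig barcodes by edgeR (81 at an unadjusted p under 0.05), 6 with Cd4 required, 23 with sex as a covariate, 2 with at least 2 UMIs and 6 to 27 leaving out each mouse. The interaction (5) gave 3 by DESeq2, 26 without the filter, 2 without contig barcodes, 0 for middle UMI totals by edgeR (105 unadjusted), 8 without productive contigs, 1 with at least 2 UMIs and 2 to 11 leaving out each mouse. Bcl6-positive against Bcl6-negative cells (1) gave 19 without the filter, 8 for middle UMI totals and 54 with Cd4 required. That comparison gave 0 with no mouse block by edgeR (136 unadjusted) and 0 to 68 leaving out each mouse. Gal, in the interaction, gave 8.22 without p19-/- 2 and -3.29 without p19-/- 3. The causes were not tested, beyond the fewer cells and genes that each subset leaves. Sex could not be told apart from mouse p19-/- 3, the only male, so the count with sex as a covariate describes the other mice.

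Mice of the genotypes share numbers 1 and 2 in the labels, which do not say whether they were paired. The correlations of their deviations over 3167 genes were -0.0789 and 0.0288. With 2 WT mice, whose deviations from their mean mirror each other, these correlations cannot decide it. With the replicate block the genotype count was 31.

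In percentage points, p19-/- minus WT for Tfr of Foxp3 cells (5.09) was -1.35 after thinning and 1.195 to 8.99 leaving out each mouse. Tfr of CD4-gated cells gave -0.445 after thinning, -0.0767 without Scrublet doublets, -0.239 at a mitochondrial limit of 5%, -0.174 with at least 2 UMIs and -0.879 to 0.818 leaving out each mouse. The Tfr to Tfh ratio gave -0.0104, -0.00189, -0.0103 and -0.0130 in the same settings and -0.0306 to 0.0177 leaving out each mouse. Foxp3 cells of CD4-gated cells gave -4.12 to 0.0680. Depth limits genes detected in few cells, such as Il10 and Il23r.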

Other observations

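Of 13 glycolysis genes tested against non-follicular Foxp3 cells, 12 had a positive log2 difference in Tfr cells, with a median of 0.26 against -0.00 over all genes, and 1 was called, where 2.06% of all genes were. That was Pfkp, for the platelet form of phosphofructokinase (log2 0.81, edgeR adjusted p = 0.0332, but 0.0855 leaving out p19-/- 2, and 0.215 and 0.201 without either WT mouse). The Pfkp call was kept in 5 of the 15 alternative settings. The 20 oxidative phosphorylation genes tested gave 10 positive and 10 negative differences and no call. Of 17 interferon gamma response genes tested, 14 had a negative difference, with a median of -0.19, and Gbp3 and Gbp7, both guanylate-binding proteins, were called lower. The Gbp3 call (log2 -1.34, edgeR adjusted p = 0.0155) was lost leaving out p19-/- 3 (0.0761) or either WT mouse (0.113 and 0.0856).

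Against Tfh cells, 7 of 18 T cell activation genes tested were higher in Tfr cells and 1 was lower, with a median of 0.51, where 3.08% of all genes were called higher and 2.6% lower. The immediate early nuclear receptor gene Nr4a3 was among those higher (log2 1.89, edgeR adjusted p = 0.00178). The cell-cycle gene Mki67 was detected in 11.5% of Tfr cells, 13.5% of non-follicular Foxp3 cells and 8.79% of Tfh cells, and neither the 16 S phase nor the 16 G2 and M phase genes tested against Tfh cells held a call.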
